A study of Homo sapiens with 6 samples.

Results

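Keratins are the intermediate filament proteins of epithelial cells, and here they are the genes whose symbol is KRT with a number and at most a letter A to C, leaving out pseudogenes and keratin-associated proteins. The table of A375 cells held 31 such genes among 29790, of which 17 encode type I and 14 encode type II keratins. The annotation lists 55, and the other 24 have no line in the table and were not analysed here. A375 is an established human melanoma cell line, grown in serum-containing medium. It was left untreated or given 3 µM fluvastatin, a statin that blocks the mevalonate pathway, for 24 h. Each group had 3 libraries, numbered 0, 1 and 2, and untreated cells grown alongside served as the reference. Nothing in the labels ties a library to its own culture, so the p-values reflect variation among libraries that may be purely technical.

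A keratin filament is built from pairs of an acidic type I and a basic-to-neutral type II chain, so each cell type normally makes matched partners. KRT8 with KRT18 is the pair of simple epithelia, KRT5 with KRT14 that of basal keratinocytes, and KRT6 with KRT16 that of wounded or hyperproliferative epidermis, while a further set builds hair. Melanocytes derive from the neural crest and rely mainly on the intermediate filament protein vimentin, although some melanoma cells also transcribe KRT8 and KRT18.

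Levels are given as FPKM, that is, fragments normalised for transcript length and for library size. Steps between low values put the depth, relative to control replicate 0, at 0.964 to 1.19 in controls and 1.27 to 1.51 after fluvastatin. The shallowest treated library was deeper than the deepest control, so depth cannot be told apart from treatment. In bulk RNA, fewer cells making a transcript and less of it per cell also cannot be told apart. Of the melanocyte-lineage markers, SOX10 and MITF were present, but 10 of the 17 in the table stayed under 1 FPKM in all 6 libraries, PMEL and DCT among them. Of 13 epithelial markers, 11 stayed under 1 FPKM throughout. EPCAM was at 0.125 FPKM or less, and CDH1 was at 0.0843 FPKM in control replicate 2 and listed at 0 elsewhere.

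Control cells already carried a sizeable set of keratin transcripts, dominated by a few genes. KRT18, the simple epithelial type I chain, was highest at 480.6, 468.1 and 416.7 FPKM in control replicates 0, 1 and 2. KRT81, a type II chain of the hair shaft, came next at 309.2, 329.0 and 285.0 FPKM. KRT80, a type II chain of the epidermis, followed at 96.6, 102.1 and 93.8 FPKM, then KRT7 at 83.4, 75.3 and 73.8 FPKM. These 4 genes held their order in every control library. KRT8 (67.3, 58.0 and 64.1 FPKM) and the suprabasal epidermal keratin KRT10 (37.5, 56.5 and 63.0 FPKM) had overlapping ranges, although KRT8 was the higher in each control. Below them the level dropped steeply, to KRT15 at 1.93, 2.16 and 3.80 FPKM and KRT86 at 1.79, 1.35 and 1.98 FPKM, whose ranges also overlapped. Summed over all 31 genes, keratins reached 1080, 1094 and 1004 FPKM in controls, which was 48.8% to 49.2% of the level of VIM, the vimentin gene.

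**Figure D1:**
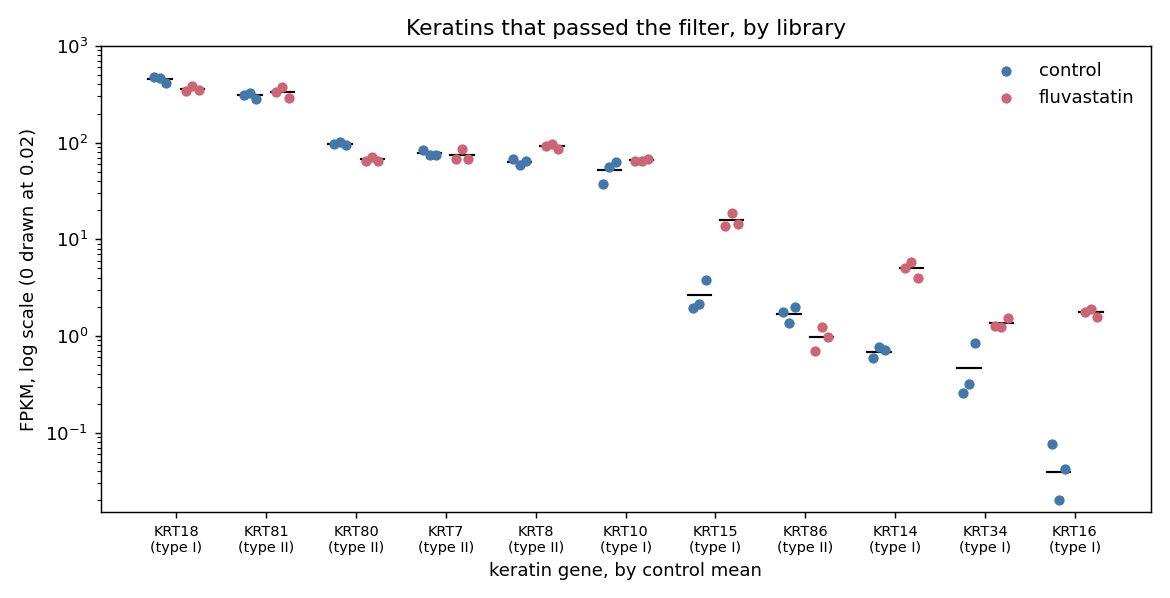
FPKM (log scale, 0 drawn at 0.02) of the 11 keratins that passed the filter, each point a library and each bar a group mean of 3, with controls in blue and fluvastatin in red. The 6 most abundant genes lie between 37.5 and 480.6 FPKM in both groups, while KRT15, KRT14, KRT34 and KRT16 are higher in every fluvastatin library.

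Fluvastatin was followed by higher transcripts of several epidermal and hair keratins that were low in controls, and by opposite changes in the simple epithelial pair. Of the 31 keratins, 11 reached 1 FPKM in at least 3 libraries and were tested with limma on log2(FPKM + 1), and the words rose and fell are kept for an adjusted p (Benjamini-Hochberg, all genes tested) under 0.05. KRT15, KRT14, KRT16, KRT34 and KRT8 rose, KRT18 and KRT80 fell, and KRT81, KRT7, KRT10 and KRT86 did not pass. Over all 14344 genes tested, 27.7% passed, with 14.1% that rose and 13.6% that fell. KRT14, KRT16 and KRT34 entered the test only through the fluvastatin libraries and so had to be higher there, which is why no support is drawn from the 7 of 11. The median log2 fold change of the 11 was 0.35, and 0.02 over the 8 that reached 1 FPKM in libraries of both groups, against -0.01 over all genes tested. With library depth added to the model, 0 of the 11 keratins passed (limma; 7 at an unadjusted p below 0.05), and 71 genes passed in all.

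The basal keratins gave the largest changes on the log2(FPKM + 1) scale. KRT15 (chromosome 17, 41513743 to 41522529 in GRCh38, minus strand), a type I chain of basal and hair follicle stem cells, went from 1.93, 2.16 and 3.80 FPKM in controls to 13.7, 18.9 and 14.4 FPKM after fluvastatin. All 3 treated libraries lay above all controls, and the means were 2.63 ± 1.02 and 15.7 ± 2.85 FPKM (SD, n = 3 each), a 5.95-fold difference. Its log2 fold change was 2.22 ± 0.22 (SE), with limma adjusted p = 0.00123, and it kept its call in 16 of 17 alternative settings. KRT14 (chromosome 17, 41582279 to 41586921, minus strand), the type I partner of KRT5, went from 0.589, 0.774 and 0.710 FPKM to 5.11, 5.85 and 4.02 FPKM, 7.23-fold higher on average. By approximate fragment numbers this was 14, 22 and 16 against 153, 205 and 122. The log2 fold change of KRT14 was 1.82 ± 0.13 (limma adjusted p = 4.45e-04), a scale that understates the change of low genes and gave 2.68 with a pseudocount of 0.1. Because KRT14 passed the filter through the fluvastatin libraries alone, its direction was fixed and its adjusted p adds no support. KRT5, the type II partner of KRT14, did not move with it. It stayed between 0 and 0.278 FPKM in controls and between 0.181 and 0.398 FPKM after fluvastatin, with overlapping groups and too low to test.

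Keratins of wounded epidermis followed the same direction at low levels. KRT16 (chromosome 17, 41609778 to 41615899, minus strand) stood at 0.0756, 0 and 0.0425 FPKM in controls and at 1.78, 1.89 and 1.59 FPKM after fluvastatin, or roughly 2, 0 and 1 fragments against 53, 65 and 48. Its log2 fold change was 1.41 ± 0.09 (SE; limma adjusted p = 3.30e-04), or 3.77 with a pseudocount of 0.1. KRT16 passed the filter through the fluvastatin libraries alone, so its direction was fixed and its adjusted p adds no support. KRT6B, a type II partner of KRT16, was at 0.0846, 0 and 0.0588 FPKM and then at 0.536, 0.520 and 0.350 FPKM. KRT6A was listed at 0 in all 3 controls and at 0.249, 0.215 and 0.228 FPKM after the drug, on about 10 fragments per library. The groups of KRT6A and KRT6B did not overlap, but both stayed under the filter, and 32.1% and 47.1% of their 50-base stretches also occur in transcripts of other genes, mostly each other's and those of KRT6C. KRT17, another type I keratin of this set, remained at or below 0.0901 FPKM in every library.

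The hair keratins split. KRT34 (chromosome 17, 41377650 to 41382403, minus strand), a type I chain of the hair shaft, was at 0.255, 0.319 and 0.839 FPKM in controls and at 1.28, 1.25 and 1.54 FPKM after fluvastatin, on 6 to 20 and 40 to 50 fragments. The groups did not overlap, and the log2 fold change was 0.70 ± 0.16 (SE; limma adjusted p = 0.0209). That call was lost without control replicate 0 (0.0535) or control replicate 1 (0.0628), and held in 6 of 13 alternatives over a range of 0.00518 to 0.205. KRT34 also passed the filter through the fluvastatin libraries alone, so its direction was fixed and its adjusted p adds no support. KRT81 was at 309.2, 329.0 and 285.0 FPKM and then at 337.5, 375.2 and 287.1 FPKM, so the groups overlapped (limma adjusted p = 0.557). KRT86, a type II hair keratin, was at 1.79, 1.35 and 1.98 FPKM and then at 0.697, 1.25 and 0.974 FPKM. Its groups did not overlap, yet its adjusted p was 0.0535 and passed in 1 alternative of 16, without control replicate 1 (0.0488). KRT81 and KRT86 lie in overlapping loci on opposite strands and 37.6% of the 50-base stretches of KRT81 also occur in KRT86. The part of shared reads in the KRT86 values was not tested.

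Within the simple epithelial pair the partners moved in opposite directions, so that their levels came closer together. KRT8 (chromosome 12, 52897187 to 52949954, minus strand), the type II chain, was at 67.3, 58.0 and 64.1 FPKM in controls and at 92.5, 96.3 and 85.8 FPKM after fluvastatin, with no overlap and a 1.45-fold higher mean. Its log2 fold change was 0.53 ± 0.10 (SE; limma adjusted p = 0.00977). KRT18 (chromosome 12, 52948871 to 52952901, plus strand), its type I partner, was at 480.6, 468.1 and 416.7 FPKM and then at 344.9, 386.9 and 348.8 FPKM, 1.26-fold lower and again without overlap. The KRT18 log2 fold change was -0.34 ± 0.10 (SE) with limma adjusted p = 0.0457. This call was marginal: it held in 4 of 17 alternatives, with adjusted p from 0.0159 to 0.242, and was lost without control replicate 0 (0.120) or 1 (0.121) and without any fluvastatin replicate. The ratio of KRT18 to KRT8 was 7.14, 8.07 and 6.50 in controls and 3.73, 4.02 and 4.07 after fluvastatin. The 2 sets of ratios did not overlap, and the two-sided exact permutation test on the log2 ratio gave p = 0.1, the smallest that 3 against 3 libraries allow.

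**Figure D2:**
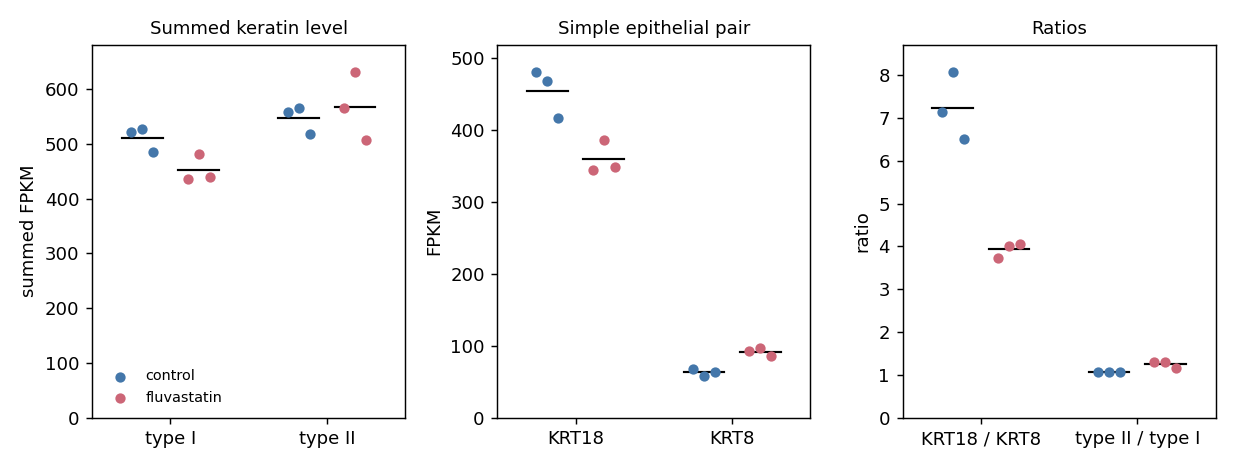
Summed FPKM of type I and type II keratins (left), FPKM of KRT18 and KRT8 (middle) and ratios (right) per library, with bars at the mean of 3 and axes starting at 0. KRT18 falls and KRT8 rises, so the ratio of KRT18 to KRT8 goes from 6.50 or more in controls to 4.07 or less after fluvastatin.

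KRT8 and KRT18 are neighbours on chromosome 12 and are transcribed in opposite directions, and 525 nt of their annotated exons overlap. Without a stated strand setting, reads there cannot be told apart. The 25 KRT8 pseudogenes in the table summed to 12.4 to 14.0 FPKM and the 46 KRT18 pseudogenes to 2.22 to 5.23 FPKM. They made up 12.05% to 18.4% and 0.571% to 1.24% of the joint level with their parents, and both sums overlapped between groups. KRT7, the other abundant type II chain of simple epithelia, was at 83.4, 75.3 and 73.8 FPKM and then at 67.8, 86.0 and 67.9 FPKM, with overlapping groups (limma adjusted p = 0.689). KRT19 and KRT20, type I chains of simple and intestinal epithelia, stayed low. KRT19 was listed at 0 in all controls and at 0.289, 0.347 and 0.361 FPKM after fluvastatin, about 7 to 10 fragments. KRT20 reached 0.845 FPKM in fluvastatin replicate 0 but only 0.152 and 0.0282 FPKM in replicates 1 and 2, against at most 0.0315 FPKM in controls.

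KRT80 (chromosome 12, 52168996 to 52192000, minus strand) fell from 96.6, 102.1 and 93.8 FPKM to 65.2, 70.9 and 65.04 FPKM, 1.45-fold lower with no overlap. Its log2 fold change was -0.53 ± 0.09 (SE; limma adjusted p = 0.00652), and the call held in 16 of 17 alternatives. KRT10, the type I chain of suprabasal epidermis, was at 37.5, 56.5 and 63.0 FPKM in controls and at 64.7, 64.9 and 67.0 FPKM after fluvastatin. Control replicate 0 stood well below the other two, the adjusted p was 0.215, and the log2 fold change of KRT10 went from 0.35 to 0.13 without that library.

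**Figure D3:**
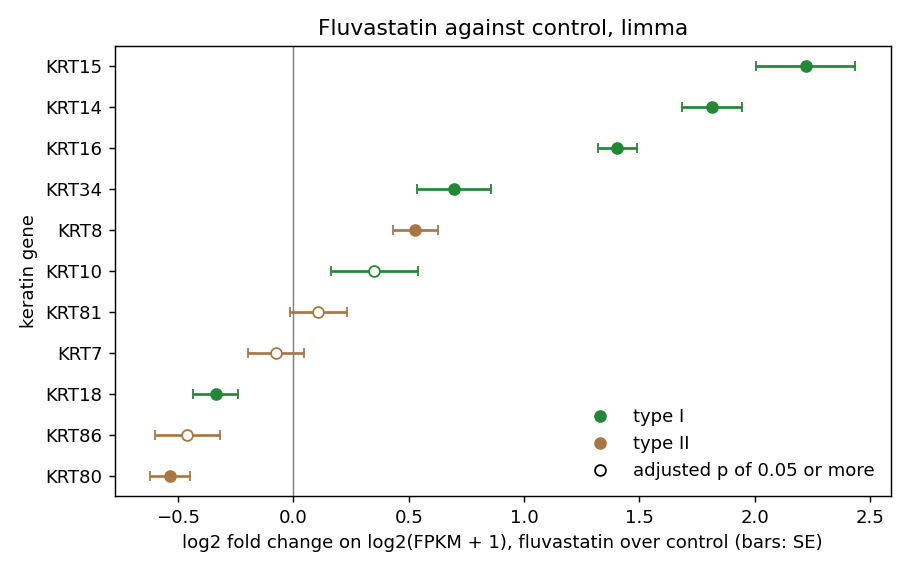
Log2 fold change on log2(FPKM + 1) of the 11 tested keratins, fluvastatin over control, with standard errors, in green for type I and brown for type II and with open points where the limma adjusted p was 0.05 or more. KRT15, KRT14 and KRT16 are at 1.41 or more, and KRT18, KRT86 and KRT80 lie below 0.

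By gene type, the 6 type I keratins tested gave 4 that rose and 1 that fell, and the 5 type II keratins gave 1 that rose and 1 that fell. Without KRT14, KRT16 and KRT34, which could enter the test only by being higher, the type I count was 1 that rose and 1 that fell of 3. Nothing is read from the counts by type. The rises of the 4 type I genes started from low levels, so they added little to the total. Summed type I keratin level was 521.0, 528.0 and 485.3 FPKM in controls and 436.5, 482.2 and 439.8 FPKM after fluvastatin, set mainly by KRT18 (two-sided exact permutation p = 0.1). Without KRT8 and KRT18 the type I sum was instead higher after fluvastatin, by 36.2 FPKM. Part of that difference is KRT10, with means of 52.3 and 65.5 FPKM, which did not pass (limma adjusted p = 0.215). Summed type II level was 558.7, 565.8 and 519.0 FPKM and then 564.7, 630.9 and 507.7 FPKM, with overlapping groups (exact permutation p = 0.8). The ratio of type II to type I was 1.07 in each control and 1.29, 1.31 and 1.15 after fluvastatin (exact permutation p = 0.1 on the log2 ratio). That difference in log2 ratio was 0.22 with all keratins and -0.78 without KRT8 and KRT18.

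The 20 keratins under the filter were mostly at the edge of detection. In 7 of them, KRT9, KRT13, KRT6B, KRT19, KRT6A, KRT32 and KRT38, every fluvastatin library lay above every control, and in 0 the reverse held. Among all 15446 genes under the filter those shares were 6.69% and 4.23%. The part of the greater depth of the treated libraries in these 7 was not tested. KRT9, a type I keratin of palm and sole epidermis, was at 0.0578, 0.0249 and 0 FPKM in controls and at 1.07, 0.879 and 0.957 FPKM after fluvastatin. In fragments this was about 2, 1 and 0 against 44, 42 and 40, and KRT9 shares no 50-base stretch with another gene. KRT13, a type I keratin of mucosa, was at 0, 0.133 and 0 FPKM and then at 2.47, 0.737 and 0.672 FPKM, so fluvastatin replicate 0 stood apart from the other two. An annotated antisense RNA covers 16.3% of the KRT13 exons. KRT32, a hair cuticle keratin, reached 0.177 to 0.210 FPKM after the drug on 6 to 8 fragments, and KRT38 0.0191 to 0.0645 FPKM on 1 to 3. With no filter on low values, 3498 of 29790 genes passed. Of the 7, KRT9 (limma adjusted p = 0.00151), KRT19 (0.00569), KRT6A (0.0106), KRT6B (0.0145) and KRT32 (0.0483) passed. KRT13 (0.0956) and KRT38 (0.525) did not. The 7 were picked on these same values, so these p-values add no support. The other 13 genes, KRT5 among them, did not separate the groups, and 4 of these were above 0 in a single library.

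Counts by position largely repeat the split by type, and nothing is read from them. Type I keratins sit in a cluster on chromosome 17, except KRT18, and type II keratins in a cluster on chromosome 12. In the chromosome 17 cluster (GRCh38, 40654665 to 41624842) all 3 fluvastatin libraries lay above all controls in 10 of 16 keratins and below in 0. Over all 29790 genes in the table these shares were 14.0% and 13.2%. The 10 include KRT14, KRT16 and KRT34 and 5 keratins under the filter. The part of the greater depth of the treated libraries in these was not tested. Next to each other lie KRT13, KRT15, KRT19, KRT9, KRT14 and KRT16, from 41500981 to 41615899 on the minus strand, and each of these 6 was among the 10. This run was marked out after its values were seen, and the keratins on its flanks, KRT36 and KRT17, did not separate the groups. In the chromosome 12 cluster (52168996 to 52952901) the counts were 3 above and 3 below, of 15. Of the 9 other genes of the table within the chromosome 17 span, 2 were tested and neither passed. By separation of the libraries, 2 of the 9, KRTAP2-3 and AC003958.2, were higher in every fluvastatin library and 0 lower. Those tested were TMEM99 at 15.4 to 19.4 and 14.0 to 19.3 FPKM (limma adjusted p = 0.925) and the keratin-associated KRTAP2-3 at 7.02 to 8.23 and 8.63 to 10.0 FPKM (0.140).

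**Figure D4:**
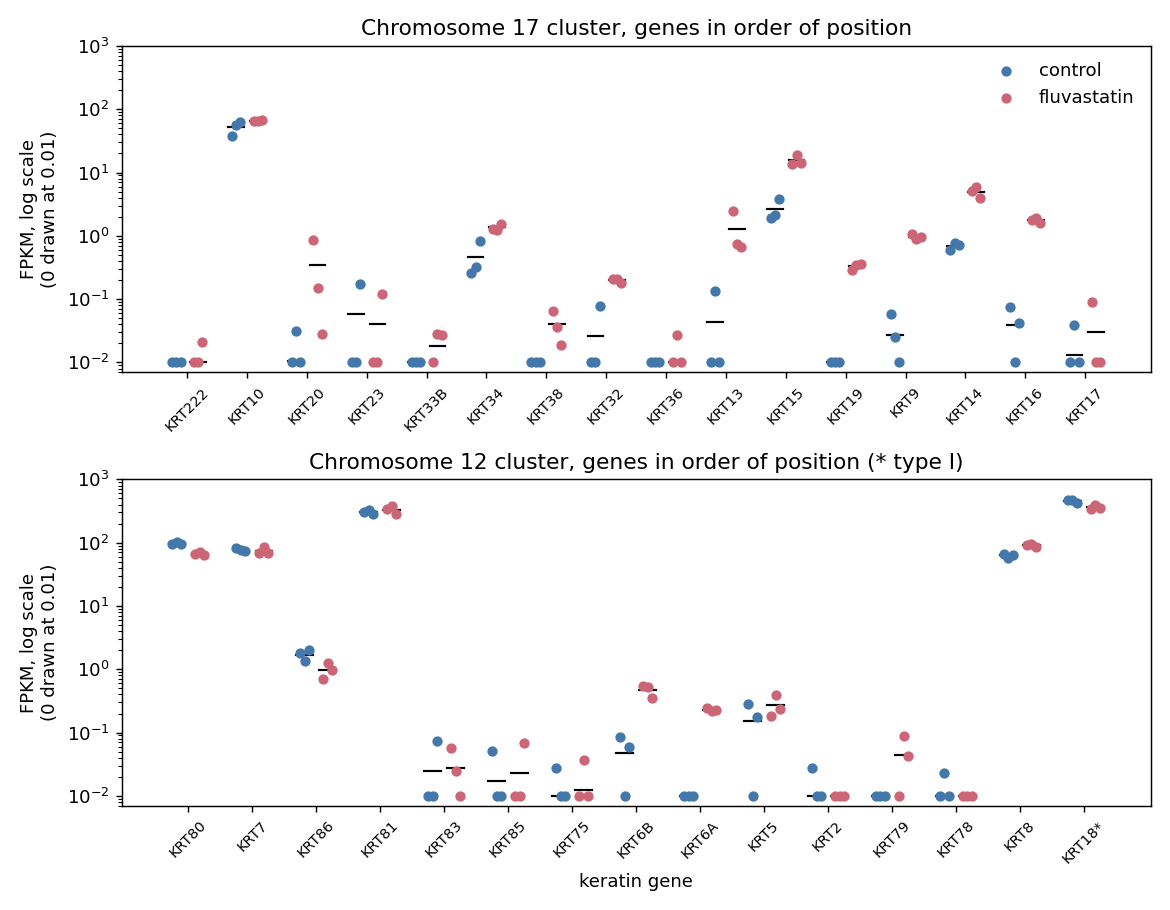
FPKM (log scale, 0 drawn at 0.01) of all 31 keratins in their order along chromosome 17 (top) and chromosome 12 (bottom), each point a library and each bar a mean of 3. The run from KRT13 to KRT16, marked out after its values were seen, is higher in every fluvastatin library, and the chromosome 12 genes go both ways.

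Promoter windows were at hand in RefSeq (GRCh38.p14) for 14 of the 31 keratins. Those of KRT34, KRT9 and KRT10 are shown as examples from the chromosome 17 cluster. All 3 were chosen for being higher in every fluvastatin library, which held in 10 of the 16 keratins there. They do not stand for the whole cluster. Control levels were low in KRT34 and KRT9 and already high in KRT10, which did not pass (limma adjusted p = 0.215). Each window is the 250 bases before the gene start that RefSeq gives, which for KRT34 lies inside the GENCODE gene model. The windows lie on the minus strand of chromosome 17, at chr17:41382307-41382556, chr17:41572060-41572309 and chr17:40822615-40822864. Capitals mark matches on either strand to the TATA box TATAAA, the CACCC box CCACCC that Krüppel-like factors can bind, or the GC box GGGCGG.
KRT34: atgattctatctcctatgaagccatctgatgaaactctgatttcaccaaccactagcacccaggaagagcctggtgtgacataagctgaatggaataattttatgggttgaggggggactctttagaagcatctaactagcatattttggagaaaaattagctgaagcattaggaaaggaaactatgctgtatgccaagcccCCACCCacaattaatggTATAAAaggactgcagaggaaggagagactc
KRT9: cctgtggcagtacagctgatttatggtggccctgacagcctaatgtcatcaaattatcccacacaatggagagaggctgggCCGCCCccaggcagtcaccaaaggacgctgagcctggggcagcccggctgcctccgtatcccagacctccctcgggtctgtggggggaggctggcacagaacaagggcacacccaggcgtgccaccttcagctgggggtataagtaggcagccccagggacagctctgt
KRT10: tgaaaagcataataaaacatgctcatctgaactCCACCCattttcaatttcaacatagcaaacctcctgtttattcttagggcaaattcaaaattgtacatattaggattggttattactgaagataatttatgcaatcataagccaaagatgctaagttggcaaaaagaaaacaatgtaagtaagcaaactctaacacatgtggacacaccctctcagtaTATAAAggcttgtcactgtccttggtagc

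The TATA box began 31 bases before the start in KRT34 and 29 bases before it in KRT10. It was found in 4 of the 14 keratin windows, KRT10, KRT33B, KRT34 and KRT38, against 10.7% of all 35116 windows. The CACCC box was in 4 (KRT10, KRT32, KRT34 and KRT85) against 31.3%, and the GC box in 3 (KRT9, KRT38 and KRT75) against 42.6%. The AP-1 motif TGANTCA was in 0 of the 14, against 6.57% of all windows. These are letter matches in short windows and say nothing about binding.

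Genes that work with keratins were taken from lists. Among genes listed as keratin linkers and desmosome anchors, 16 of 23 in the table were tested. Of these, 11 rose and 2 fell, 81.2% against 27.7% of all genes tested. The median log2 fold change was 0.83, against -0.01 over all genes tested. With the depth covariate 4 of the list passed (ITGB4, DSC2, JUP and DSP), and 71 of all 14344 genes tested. Over the alternative settings the highest limma adjusted p of these 4 genes ran from 0.0345 to 0.0490, close to the threshold. JUP, the desmosomal plaque protein plakoglobin, went from 0.986, 0.614 and 0.780 FPKM to 10.3, 11.1 and 7.91 FPKM (limma adjusted p = 2.39e-04). It was the 1 linker that passed the filter through the fluvastatin libraries alone, and 10 of the other 15 rose. DSC2, a desmosomal cadherin, went from 1.37, 1.74 and 1.76 FPKM to 9.58, 10.5 and 11.0 FPKM, and DSP, the keratin-binding desmoplakin, from 1.70, 1.67 and 1.62 FPKM to 7.05, 6.43 and 7.41 FPKM. ITGB4, the hemidesmosome integrin chain that binds keratins through plectin, rose from 85.9, 90.0 and 84.9 FPKM to 319.8, 341.4 and 337.6 FPKM. Plakophilin 2, PKP2, fell from 17.4 ± 1.48 to 11.6 ± 0.605 FPKM (SD, n = 3 each).

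**Figure D5:**
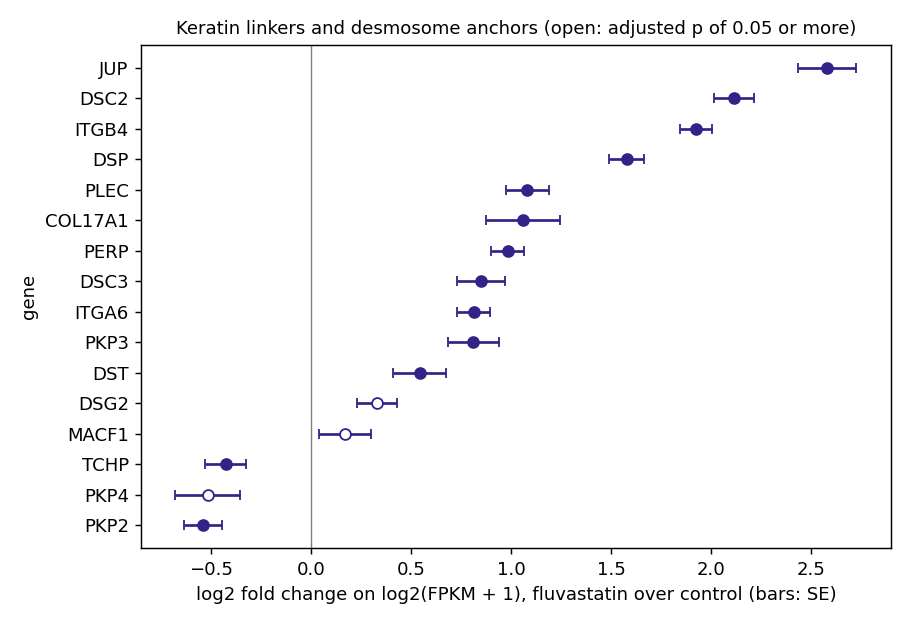
Log2 fold change on log2(FPKM + 1), fluvastatin over control, with standard errors, of the 16 tested genes listed as keratin linkers and desmosome anchors. Open points did not pass, and JUP, DSC2, ITGB4 and DSP are at 1.58 or more.

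Of 8 other intermediate filament genes tested, 3 rose and 3 fell, 75% against 27.7% of all genes tested. VIM was at 2195, 2237 and 2059 FPKM in controls and at 2355, 2532 and 2473 FPKM after fluvastatin (limma adjusted p = 0.155), so keratins came to 38.3% to 44.0% of it after treatment. The lamins LMNA, up 2.31-fold, and LMNB1, down 1.83-fold, form the nuclear rather than the cytoplasmic network. SYNC, a muscle-type filament protein, rose 3.86-fold. Among 32 tested proteins that bind, modify or turn over keratins, 7 rose and 4 fell, 34.4% against 27.7% of all genes tested, with SFN (14-3-3 sigma, a keratin-binding adaptor) up 4.02-fold and YWHAH up 1.78-fold. CDK1, which phosphorylates keratins in mitosis, fell 1.45-fold.

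Of 32 tested transcription factors known to act on keratin genes, 8 rose and 3 fell, again 34.4% against 27.7% of all genes tested. The AP-1 proteins JUND, JUN and JUNB rose 3.54-fold, 2.34-fold and 1.97-fold, and the vitamin D receptor VDR, which passed the filter through the controls alone, fell 4.97-fold. TP63, the master factor of basal keratinocytes, was listed at 0 in all controls and reached at most 0.0914 FPKM. Of 9 repressors of epithelial genes, 4 rose and 0 fell, 44.4% against 27.7% of all genes tested. SNAI2 passed the filter through the fluvastatin libraries alone. Among the others that rose were FOXC2 at 1.69-fold and ZEB2 at 1.51-fold. The ZEB2 call was lost without control replicate 1 (0.0590) or any fluvastatin replicate, over a range of 0.0157 to 0.308.

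Most of the keratinocyte markers tested rose. Of 13 in the table, 8 were tested, and 7 rose and 0 fell, 87.5% against 27.7% of all genes tested. ITGB4, PERP, DSC3 and COL17A1 were also counted among the linkers, and SFN among the keratin-binding proteins, so this count largely repeats those lists. Of those that rose, only LAMB3 and TRIM29 were in no earlier list. TRIM29 passed the filter through the fluvastatin libraries alone, so its direction was fixed. The summed level of the 13 was 174.4 to 185.5 FPKM in controls and 523.1 to 563.1 FPKM after fluvastatin. ITGB4 was the largest part of this, at 84.9 to 90.0 FPKM in controls and 319.8 to 341.4 FPKM after fluvastatin. LAMB3 was up 2.26-fold and PERP up 2.01-fold, whereas TP63, IVL, DSG1 and PKP1 stayed under 0.15 FPKM. Of 20 cornified envelope and differentiation genes, 4 were tested and LYPD3, GJB2 and SBSN rose, 75% against 27.7% of all genes tested. GJB2 and SBSN passed the filter through the fluvastatin libraries alone, so nothing is read from this count. IVL, FLG and CDSN stayed at or below 0.148 FPKM. Epithelial markers summed to 14.0 to 16.6 and 23.1 to 26.0 FPKM, with CLDN4 up 7.97-fold and AP1M2 down 1.74-fold. Of the melanocyte-lineage markers, 6 were tested. Of these, 4 rose (MIA, SOX10, ERBB3 and CDH19) and 0 fell, 66.7% against 27.7% of all genes tested. The 17 in the table summed to 160.3 to 194.2 and 272.3 to 356.6 FPKM. MIA (135.0 to 210.4 FPKM on average, with a call that held in 7 of 17 alternatives) and SOX10 (23.3 to 72.0 FPKM) made up most of this. MITF (7.18 to 6.68 FPKM), PMEL (0.593 to 0.395 FPKM) and TYRP1 (0.212 to 0.0759 FPKM) had lower means after the drug. MITF did not pass (limma adjusted p = 0.529), and PMEL and TYRP1 were too low to test. Fibroblast markers summed to 32.6 to 37.8 and 30.5 to 33.4 FPKM, and blood and endothelial markers to 0.565 to 0.826 and 1.52 to 1.91 FPKM. The part of other cell types in the keratin values was not tested.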

How the data were processed

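RNA-seq was made from total RNA of 3 control and 3 fluvastatin libraries, per the labels. The authors deposited a single table of FPKM per gene and library, made with STAR, Cufflinks and Cuffdiff on hg38 per the submitters' processing notes. Its header names no unit, and FPKM was inferred from the tools and from values that are not whole. Versions, strand setting and annotation release are not given in the sources used here. Members, lists and tests were chosen with earlier results of these data known. Every keratin past the filter is named, with up to 4 called genes per list and some others chosen after their values were seen.

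The filter kept a gene if 3 or more of the 6 libraries reached 1 FPKM. limma 3.58.1 (R 4.3.3; lmFit, eBayes, no block) was run two-sided on log2(FPKM + 1), with Benjamini-Hochberg adjustment over all 14344. Sums and ratios over libraries used exact permutation tests (scipy 1.17.1). Relative depth came from the commonest ratio between low values of a library and control replicate 0. Its scale in fragments came from genes above 0 in a single library, taken as 1 fragment, and the longest GENCODE 29 transcript (at least 1000 nt), so fragment numbers are approximate. Shared 50-base stretches were counted against all GENCODE 29 transcripts, on either strand. The fit and the depth estimate were tested on simulated data. The simulated data for the depth estimate held no difference between groups, so they could not separate depth from treatment. The analysis was repeated with trimmed-mean scaling, a smaller pseudocount (0.1), a stricter filter (mean 5 FPKM or more) or none, quantile normalization, trend and robust eBayes, a replicate block, depth as a covariate, and leaving out each library. Leaving out a fluvastatin library while keeping the 14344 genes was added after seeing the data.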

Additional observations from a re-analysis of the deposited data

How the results depend on the processing

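Of 174 alternative values of the 11 keratins, 147 kept direction and side of the threshold, 25 lost the call, 1 gained it and 1 changed sign, KRT81 at -0.12 with depth as a covariate. The number of keratins past the threshold, 7, was 4 at a mean of at least 5 FPKM, where 7 were tested, and 0 with depth as a covariate (limma; 7 at an unadjusted p below 0.05). Leaving out 1 library gave 3 to 7 keratins, the 3 each time a fluvastatin library was left out: KRT14, KRT16 and KRT34 then failed the filter and KRT18 lost its call. Keeping those 3 genes in the test gave 5 in each case, without KRT18 and KRT34. All genes past the threshold, 3971, became 71 with depth as a covariate and 2277 to 3483 without 1 library.

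Without KRT8 and KRT18 the differences in summed type I level, type II level and log2 ratio were 36.2 FPKM, -8.44 FPKM and -0.78, the reverse of the values with them. Leaving out 1 library put the type II difference between -11.6 (without fluvastatin replicate 1) and 49.98 FPKM. Same-numbered libraries did not deviate together (correlations -0.0015, 0.0845 and 0.0842), and not every library correlated best with its own number. With the replicate number as a block, 3154 genes and 6 keratins passed, and KRT18 did not (adjusted p = 0.0724).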

Other observations

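KRT19P6, a processed pseudogene of KRT19 on chromosome 4 (GRCh38, 91885046 to 91885254, minus strand), was listed at 0 in all 3 controls and at 1.21 to 1.43 FPKM after fluvastatin (limma adjusted p = 3.74e-04). It was chosen after its values were seen and passed the filter through the fluvastatin libraries alone, so its direction was fixed. In FPKM it was above KRT19 itself in each fluvastatin library, at 77.7% to 83.2% of their joint level. FPKM divides by length, and the span of KRT19P6 is far shorter than the longest KRT19 transcript (1390 nt). A higher FPKM therefore need not mean more fragments, and fragments of KRT19P6 were not estimated. No 50-base stretch of the annotated KRT19 transcripts occurs in KRT19P6.

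KRT18 made up 41.5% to 44.5% of the summed keratin level in controls and 34.5% to 36.8% after fluvastatin, while KRT81 made up 28.4% to 30.1% in controls and 30.3% to 33.7% after it. Keratins with a mean under 5 FPKM summed to 2.70 to 4.13 FPKM in controls and 11.4 to 14.9 FPKM after the drug.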
